A study of Arabidopsis thaliana with 12 samples.

Results

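MUTEv5#5 was set against MUTEv5#2, a pair of transgenic lines of Arabidopsis thaliana that carry the same altered allele of the transcription factor gene *MUTE* and differ in the strength of their stomatal phenotype. The members were the libraries whose labels name these lines, 3 of MUTEv5#5 and 3 of MUTEv5#2, which are 6 of the 12 libraries of the study, and every gene of the table was compared. Per the submitters' design text, MUTEv5#5 is severely affected, with stomatal lineages that arrest, whereas MUTEv5#2 is moderately affected, with stomata in clusters, and the lines were selected to represent these phenotypes. In both, the MUTE promoter drives an allele whose protein has an arginine-to-tryptophan change in the bHLH domain (R10W), in the homozygous state and in the mute-3 mutant background. The study's other 6 libraries, used here to estimate the spread and shown for their levels, came from MUTEPPP#3, whose allele puts proline at residues 3, 7 and 11, and from MUTE, line 1 with the wild-type allele. These lines have the same promoter and the same mute-3 background. Every library held 50 whole seedlings, pooled at 2 days post-germination after growth on medium with 1% sucrose under days of 16 h light, with no other treatment. Each group is a single transgenic line, so the severity of the phenotype, the dose of the transgene, its insertion site and any other difference between the lines cannot be told apart.

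Stomata form through a short epidermal cell lineage that is steered in turn by the bHLH transcription factors SPEECHLESS (SPCH), MUTE and FAMA, each acting with the partner SCRM or SCRM2. SPCH starts the lineage and its asymmetric divisions, MUTE ends them and commits a cell to the guard mother cell state, and FAMA stops the last division and brings on guard cell identity. Without MUTE activity the lineage cells keep dividing and arrest, and no stomata form. Stomatal lineage cells are a small share of a seedling, and in RNA from whole seedlings fewer cells of a type and less RNA per cell cannot be told apart.

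The residue altered in both lines lies near the start of the protein. It is shown in the first 15 codons of the wild-type gene (chr3:1846531-1846575, plus strand, RefSeq TAIR10.1), where capitals mark codon 10, which encodes the arginine; the base change used to build the transgene is not given in the sources used here.
MUTE, codons 1 to 15: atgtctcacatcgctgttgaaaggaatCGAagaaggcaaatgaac

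Library totals were 149035238, 135741038 and 134469363 counts in MUTEv5#5 and 127921202, 125291152 and 147047090 counts in MUTEv5#2. In the most shallow of all 12 libraries, MUTE replicate 3, 1 count was worth 0.00915 CPM, the count scaled to a library of 1000000 counts, and it was worth less in the MUTEv5 libraries. Over genes, which are not independent replicates, log2 CPM correlated at a Pearson r of 0.981 to 0.992 within a line and 0.975 to 0.987 between the lines. Seedling markers were present in all 6 libraries, and all 13 photosynthesis, 9 epidermis and cuticle and 6 root tissue genes listed passed the filter on low counts. An index of time of day, the mean log2 CPM of 8 morning clock genes minus that of 10 evening clock genes, was 4.81, 2.70 and 4.30 in MUTEv5#5 and 3.50, 3.09 and 2.29 in MUTEv5#2. The means differed by 0.976 (exact two-sided permutation p = 0.300, where 0.1 is the smallest p that 3 against 3 can give). Organelle and ribosomal RNA took 1.11%, 1.47% and 1.53% of the counts in MUTEv5#5 and 1.10%, 2.50% and 2.92% in MUTEv5#2, a difference of -0.801 percentage points (exact two-sided permutation p = 0.400).

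The edgeR test called few genes between the lines. Of 22636 genes tested, 15 passed at a Benjamini-Hochberg adjusted p under 0.05, or 0.0663%, with 4 higher (0.0177%) and 11 lower (0.0486%) in MUTEv5#5 than in MUTEv5#2. A change of at least 2-fold was seen in 14 of the 15 (0.0618%). None of the 15 is a member of the stomatal, cell cycle, clock, hormone, stress or metabolic lists that were examined. These lists hold 248 entries of the table, a small share of the 22636 genes tested, so this absence says little about them. At a call rate of 0.0663% over all genes, 0 calls in a single list says as little. The median log2 fold change over all genes was 0.0005, with quartiles of -0.138 and 0.153. The 3 libraries of MUTEv5#5 did not overlap the 3 of MUTEv5#2 in 4120 of the 22636 genes tested, 2272 higher and 1848 lower in MUTEv5#5. At an unadjusted p under 0.05 there were 2455 genes (10.8%), 1424 higher (6.29%) and 1031 lower (4.55%), where 1132 would be reached if no gene differed and all tests were exact. DESeq2 called 300 genes (1.33%), 191 higher (0.844%) and 109 lower (0.482%), among them all 15. The count of 15 rests on single libraries: it was 5 without MUTEv5#5 replicate 2 or replicate 3, 3 without MUTEv5#2 replicate 1, 5 without MUTEv5#2 replicate 2 and 35 without MUTE replicate 1. From the same fit, 235 genes (1.04%) were called in MUTEv5#5 over MUTE, 1140 (5.04%) in MUTEv5#2 over MUTE and 5577 (24.6%) in MUTEPPP#3 over MUTE; these comparisons share the MUTE libraries, and the first and second of them share libraries with the comparison of the MUTEv5 lines.

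**Figure D1:**
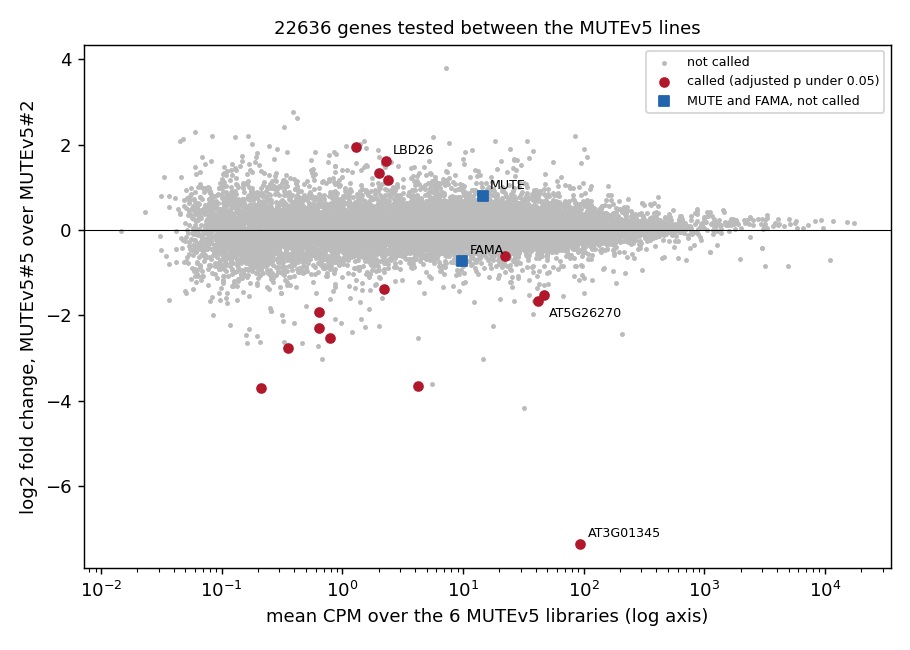
Log2 fold change of MUTEv5#5 over MUTEv5#2 (y axis) against mean CPM over the 6 MUTEv5 libraries (x axis, log scale) for the 22636 genes tested, 1 point a gene. The 15 called genes are red, with AT3G01345 lowest at -7.37, and *MUTE* and *FAMA*, not called, are blue squares.

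*MUTE* (AT3G06120, chr3:1846442-1848259, plus strand), the gene altered in these lines, had 24.5, 14.4 and 16.8 CPM in MUTEv5#5 and 12.9, 10.8 and 8.26 CPM in MUTEv5#2. All 3 values of MUTEv5#5 lay above all 3 of MUTEv5#2, with replicate 1 the highest of each line. The log2 fold change was 0.80 (95% interval 0.32 to 1.28, SE 0.216) and was not called, at an adjusted p of 0.259. DESeq2 called it at the same fold change (adjusted p = 0.0453), and without MUTEv5#5 replicate 1 it was 0.55. The libraries of MUTEPPP#3 and MUTE had 4.85 to 6.93 CPM, below those of either MUTEv5 line. Counts of *MUTE* join the transgene with the resident mute-3 gene and do not separate the alleles.

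Among the partners and relatives of MUTE, 0 were called. *SPCH* (AT5G53210) had 19.3, 16.4 and 14.6 CPM in MUTEv5#5 and 13.6, 15 and 11 CPM in MUTEv5#2, which overlap (log2 fold change 0.34, SE 0.156, adjusted p = 0.461). *FAMA* (AT3G24140) had 9.26, 6.64 and 6.36 CPM in MUTEv5#5 and 12.7, 12.3 and 12 CPM in MUTEv5#2. Its groups were apart, and every MUTEv5 library lay below the 18.9 to 23.9 CPM of MUTEPPP#3 and MUTE. The log2 fold change of *FAMA* was -0.74 (SE 0.135, adjusted p = 0.118). Without MUTEv5#5 replicate 1 it was -0.93 and called (adjusted p = 0.0157), and DESeq2 called it with all libraries (adjusted p = 0.000517). *SCRM* (AT3G26744), the shared partner of the lineage bHLH factors, had 106, 96.3 and 96.7 CPM in MUTEv5#5 and 82.5, 83.0 and 76.0 CPM in MUTEv5#2 (0.31, SE 0.0732, adjusted p = 0.212). Its paralog *SCRM2* (AT1G12860) had 61.9, 95.6 and 66.5 CPM in MUTEv5#5 and 53.2, 53.2 and 56.9 CPM in MUTEv5#2 (0.46, SE 0.190, adjusted p = 0.429). For both genes the lines did not overlap, and replicate 2 of MUTEv5#5 had the highest *SCRM2* value of all 12 libraries.

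Of 12 genes of the early lineage, 0 were called, 10 had a positive and 2 a negative log2 fold change, and the median was 0.22 against 0.00 over all genes tested. At an unadjusted p under 0.05 there were 6 higher and 1 lower, where 6.29% and 4.55% of all genes were. *POLAR* (AT4G31805), a polarity protein of asymmetrically dividing cells, had 11.5, 11.1 and 10.8 CPM in MUTEv5#5 and 7.88, 8.05 and 7.53 CPM in MUTEv5#2, with little spread in either line (0.51, SE 0.119, adjusted p = 0.205). *SDD1* (AT1G04110), a subtilisin-like protease that limits stomatal number, was among the 2 with a negative value. It had 5.27, 6.17 and 6.45 CPM in MUTEv5#5 and 8.66, 9.97 and 11.3 CPM in MUTEv5#2 (-0.74, SE 0.145, adjusted p = 0.122). *CYCD3;1*, a D-type cyclin, stood at 26.3 ± 0.811 CPM in MUTEv5#5 and 22.0 ± 0.537 CPM in MUTEv5#2 (SD, n = 3 each; 0.26, adjusted p = 0.335). *EPF2*, the secreted peptide that restrains entry into the lineage, averaged 7.06 CPM in each line. DESeq2 called *SCRM* and *POLAR* higher and *SDD1* lower, 3 of the 12, where it called 1.33% of all genes (0.844% higher and 0.482% lower). In the lists that follow it called *MUTE* and *FAMA* of 16 guard mother cell genes, *SLAC1* and AT1G23200 of 15 mature guard cell genes and 0 of 10 signalling genes.

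In the guard mother cell list, which holds 16 genes with *MUTE* and *FAMA* among them, the median log2 fold change was 0.07, and *MUTE* and *FAMA* were the members with an unadjusted p under 0.05. Besides these 2 genes, the smallest p belonged to *CYCD7;1*, a cyclin of the last division that forms the guard cell pair, with 0.491, 0.183 and 0.244 CPM in MUTEv5#5 and 0.118, 0.154 and 0.147 CPM in MUTEv5#2 (1.14, SE 0.597, 95% interval -0.18 to 2.45, adjusted p = 0.526). *ERL1*, a receptor kinase that inhibits stomatal fate, followed with overlapping values (0.22, adjusted p = 0.601). The median over 15 mature guard cell genes was -0.03, with 1 higher and 2 lower at an unadjusted p under 0.05. *SLAC1* (AT1G12480), the anion channel that closes stomata, had 1.00, 0.871 and 1.09 CPM in MUTEv5#5 and 1.57, 1.79 and 2.05 CPM in MUTEv5#2 (-0.87, adjusted p = 0.0964, and 4.59e-05 by DESeq2). AT1G23200 had 0.582, 0.657 and 0.457 CPM in MUTEv5#5 and 1.33, 0.818 and 1.27 CPM in MUTEv5#2 (-1.01, adjusted p = 0.236, and 0.0270 by DESeq2). Both genes lay lower in every MUTEv5#5 library, but the list as a whole was split, with 7 members higher and 8 lower. Among the higher, *TGG2*, a myrosinase of guard cells, stood at 49.0 ± 4.20 CPM in MUTEv5#5 and 40.3 ± 4.11 CPM in MUTEv5#2 (SD, n = 3 each, 0.28, adjusted p = 0.416), and *KAT2*, an inward potassium channel, differed by 0.25 (adjusted p = 0.541). Among the lower, with overlapping values, were *TGG1* (-0.24, adjusted p = 0.585) and *KAT1* (-0.42, adjusted p = 0.774).

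Among 10 stomatal signalling genes, 5 were higher and 5 lower, with a median of -0.01. *EPFL9* (AT4G12970), the mesophyll peptide stomagen that promotes stomata, had 9.46, 7.6 and 8.78 CPM in MUTEv5#5 and 5.60, 4.75 and 5.59 CPM in MUTEv5#2, which are apart (0.70, adjusted p = 0.299). *YDA*, the MAP kinase kinase kinase below the stomatal receptors, stood at 47.3 ± 2.92 CPM in MUTEv5#5 and 54.6 ± 4.21 CPM in MUTEv5#2 (SD, n = 3 each; -0.21, adjusted p = 0.411). *BIN2*, a kinase of brassinosteroid signalling that acts on this cascade, differed by 0.18 (adjusted p = 0.587).

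**Figure D2:**
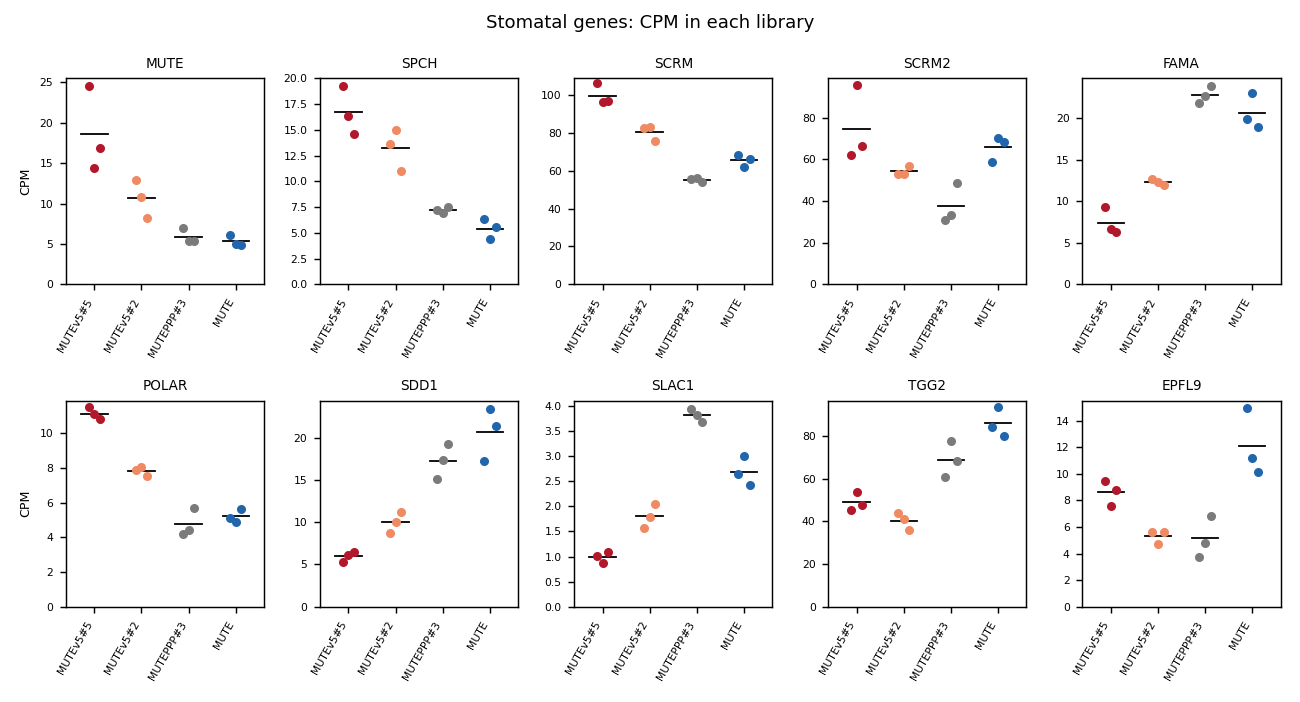
CPM of 10 stomatal genes (y axes, from 0) in each library of the 4 lines (x axis), 1 point a library and a bar at the mean of 3. *MUTE*, *POLAR* and *SCRM* sit highest in MUTEv5#5, *FAMA*, *SDD1* and *SLAC1* sit lowest there, and edgeR called none of the 10 between the MUTEv5 lines.

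The genes that did pass the test were mostly ones whose level stood apart in MUTEv5#2 alone. Of the 15, 9 were higher and 1 was lower in all 3 MUTEv5#2 libraries than in the other 9 libraries of the study, while over all genes tested these shares were 0.663% and 0.521%. MUTEv5#5 stood above the other 9 libraries in 3 of the 15 and below them in 1, against 1.10% and 0.919% of all genes. A high or low value in either line is what lets a gene pass this test, so these counts describe the called genes and test nothing.

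AT3G01345, a protein-coding gene of no named function (chr3:129138-130749, plus strand), showed the widest gap. It had 1.86, 0.970 and 0.533 CPM in MUTEv5#5, from 287, 127 and 70 counts, and 205, 184 and 171 CPM in MUTEv5#2, from 27868, 23779 and 24368 counts. The 6 libraries of MUTEPPP#3 and MUTE, at 0.266 to 2.90 CPM, resembled MUTEv5#5, so that MUTEv5#2 stood alone with a high level. The log2 fold change was -7.37 (SE 0.680, 95% interval -8.87 to -5.87, adjusted p = 0.00271). The neighbours on either side differed little: AT3G01340, which starts 144 bases away on the opposite strand, by 0.02 (adjusted p = 0.972), *DEL3*, an atypical E2F factor, by -0.14, and AT3G01350 by -0.12. The sequence between AT3G01340 and the start of AT3G01345 is shown because this gene has the largest change in the comparison (chr3:128995-129137, plus strand, RefSeq TAIR10.1). It holds no CANNTG, the E-box bound by bHLH factors, which would be in capitals.
AT3G01345, upstream: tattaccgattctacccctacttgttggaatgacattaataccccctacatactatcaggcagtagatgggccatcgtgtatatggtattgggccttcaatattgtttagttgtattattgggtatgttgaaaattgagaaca

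AT5G26270, an uncharacterised protein-coding gene (chr5:9206375-9208136, plus strand), gave the smallest p. It had 19.2, 21.2 and 19.6 CPM in MUTEv5#5 and 58.6, 64.0 and 67.3 CPM in MUTEv5#2, with 19.1 to 26.0 CPM in the MUTEPPP#3 and MUTE libraries. MUTEv5#2 was again the line that stood apart (-1.66, SE 0.114, adjusted p = 0.000376). AT5G26280, which starts 437 bases downstream on the same strand, had 371 ± 13.8 CPM in MUTEv5#5 and 237 ± 7.34 CPM in MUTEv5#2 (SD, n = 3 each), the opposite direction, and was not called by edgeR (0.64, adjusted p = 0.118). DESeq2 called AT5G26280 (adjusted p = 0.000791). AT2G06002, a noncoding RNA (chr2:2330776-2331479, plus strand), had 0.886, 0.550 and 0.449 CPM in MUTEv5#5 and 8.41, 6.10 and 9.17 CPM in MUTEv5#2, against 0.348 to 0.698 CPM in the other lines (-3.64, SE 0.316, adjusted p = 0.00217). These 3 genes, AT3G01345, AT5G26270 and AT2G06002, were called in all 12 fits that left out a library and under 11 of the 12 other alternatives, the exception being the replicate block with only the 6 MUTEv5 libraries, with log2 fold changes of -7.95 to -7.04, -1.72 to -1.59 and -3.98 to -3.46.

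Pseudogenes and noncoding RNAs made up 8 of the 15 called genes, against 6.07% of the genes tested. Besides AT2G06002, those lower in MUTEv5#5 included the pseudogene AT5G33395, with 0.278, 0.267 and 0.152 CPM in MUTEv5#5 and 1.26, 1.37 and 1.41 CPM in MUTEv5#2 (-2.52, adjusted p = 0.0109). The protein-coding gene AT5G33390, 1010 bases before it on the same strand, differed by -2.62 and was not called by edgeR (adjusted p = 0.103). DESeq2 called AT5G33390 (adjusted p = 0.000931). The transcribed pseudogene AT5G28230 stood at 0.215 ± 0.0883 CPM in MUTEv5#5 and 1.06 ± 0.141 CPM in MUTEv5#2 (SD, n = 3 each; -2.29, adjusted p = 0.0256). AT2G00840, an RNA of no stated class, stood at 0.266 ± 0.0135 CPM in MUTEv5#5 and 1.02 ± 0.107 CPM in MUTEv5#2 (-1.93, adjusted p = 0.0246). All 3 were highest in MUTEv5#2 among the 4 lines. AT5G33395, AT5G28230 and AT2G00840 were called in 8, 5 and 6 of the 12 fits that left out a library. All 3 calls were lost without MUTEv5#5 replicate 2 or 3 or MUTEv5#2 replicate 1 or 2, that of AT2G00840 also without either other MUTEv5 library, and that of AT5G28230 also without MUTEv5#2 replicate 3 or MUTE replicate 2 or 3. Over all alternatives their log2 fold changes ran from -2.68 to -2.30, -2.69 to -2.13 and -2.14 to -1.84.

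A pair of the called noncoding RNAs are neighbours on chromosome 2. AT2G08450 (chr2:13503534-13503920) and AT2G08455 (chr2:13504372-13505361) lie 452 bases apart on the minus strand. AT2G08450 had 2, 4 and 6 counts in MUTEv5#5 and 66, 36 and 59 counts in MUTEv5#2, which are 0.0129, 0.0306 and 0.0457 CPM in MUTEv5#5 and 0.485, 0.278 and 0.413 CPM in MUTEv5#2 (-3.71, SE 0.407, adjusted p = 0.00895). AT2G08455 had 13, 11 and 13 counts in MUTEv5#5 and 102, 67 and 82 counts in MUTEv5#2 (-2.77, SE 0.347, adjusted p = 0.0173). Counts of both were low, yet every MUTEv5#2 library lay above every other library of the study. Next to them on the same strand, the long noncoding RNA AT2G31751 (chr2:13497140-13502275) had 2.22, 2.71 and 2.66 CPM in MUTEv5#5 and 8.88, 6.84 and 5.32 CPM in MUTEv5#2 and just missed the threshold in edgeR (-1.47, adjusted p = 0.0530, and 2.88e-07 by DESeq2). *UGT74D1*, a glucosyltransferase gene that overlaps AT2G31751 on the plus strand, was not lower: it stood at 105 ± 13.9 CPM in MUTEv5#5 and 67.3 ± 4.64 CPM in MUTEv5#2 (SD, n = 3 each, 0.64, adjusted p = 0.232, and 0.0426 by DESeq2). AT2G31740, on the far side, differed by -0.01.

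Reads of this chromosome 2 group cannot be placed with certainty. AT2G08450 has 9 and AT2G08455 has 7 matches elsewhere in the genome of at least 90% identity over at least 150 bases, the longest about as long as the gene (101% and 97.5% of its length), and each also overlaps an untested noncoding gene on the plus strand. The strand setting of the counting is not given in the sources used here. AT2G08450 was called in 10 and AT2G08455 in 7 of the 12 fits that left out a library, both calls being lost without MUTEv5#5 replicate 2 or MUTEv5#2 replicate 1 and that of AT2G08455 also without MUTEv5#5 replicate 1 or 3 or MUTEv5#2 replicate 2, with log2 fold changes of -4.16 to -3.33 and -2.88 to -2.61 over all alternatives. The 250 bases before AT2G08455 are shown as the start of the group (chr2:13505362-13505611, minus strand, RefSeq TAIR10.1), with a single CANNTG in capitals.
AT2G08455, upstream: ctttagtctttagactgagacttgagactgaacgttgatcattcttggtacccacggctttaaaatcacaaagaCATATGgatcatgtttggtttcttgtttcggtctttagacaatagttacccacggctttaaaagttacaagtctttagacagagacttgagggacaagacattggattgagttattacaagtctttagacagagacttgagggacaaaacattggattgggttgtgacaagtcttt

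**Figure D3:**
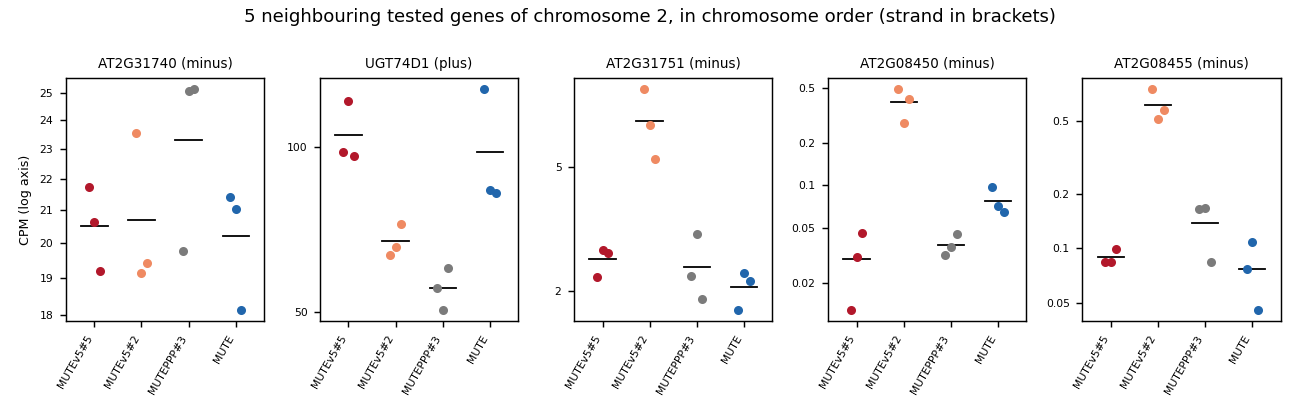
CPM (y axes, log scale) of 5 tested genes that are neighbours on chromosome 2, in their order along it, in each library of the 4 lines (x axis), with a bar at the mean of 3. The 3 noncoding genes on the right are highest in MUTEv5#2, while *UGT74D1* is not and AT2G31740 differs little.

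The rises in MUTEv5#5 were 4. *LBD26* (AT3G27940, chr3:10373251-10376480, plus strand), a LOB-domain transcription factor gene, had 3.97, 3.06 and 3.35 CPM in MUTEv5#5 and 1.03, 1.17 and 1.17 CPM in MUTEv5#2 (1.62, SE 0.191, adjusted p = 0.0109). The order over the lines was MUTEv5#5, then MUTEPPP#3 at 1.53 ± 0.149 CPM, MUTEv5#2 at 1.12 ± 0.0799 CPM and MUTE at 0.434 ± 0.115 CPM (SD, n = 3 each). Its values over MUTE were 3.00 in MUTEv5#5 (adjusted p = 0.000123) and 1.37 in MUTEv5#2 (adjusted p = 0.00867), comparisons that share the MUTE libraries. The 250 bases before its start are shown since it is the transcription factor gene among the 4 called rises (chr3:10373001-10373250, plus strand, RefSeq TAIR10.1), with its 3 CANNTG matches in capitals.
LBD26, upstream: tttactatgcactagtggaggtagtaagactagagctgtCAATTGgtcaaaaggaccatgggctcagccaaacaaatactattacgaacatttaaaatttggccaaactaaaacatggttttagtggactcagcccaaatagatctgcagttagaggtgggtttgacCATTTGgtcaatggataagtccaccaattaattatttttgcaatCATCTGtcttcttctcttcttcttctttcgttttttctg

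CANNTG, which reads the same on both strands, was found in the 250 bases before 10 of the 15 called genes and before 56.1% of the 22636 genes tested. CACGTG, the G-box form of CANNTG, was found before 0 of the 15 and before 6.94% of the genes tested. A match describes the sequence only and is no evidence of binding.

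The pseudogene AT1G43590 (chr1:16414121-16414627, plus strand) had 2.29, 1.90 and 2.03 CPM in MUTEv5#5 and 0.573, 0.455 and 0.588 CPM in MUTEv5#2 (1.94, SE 0.226, adjusted p = 0.0109). It also stood above the 0.172 to 0.663 CPM of the other lines, but has 4 near copies in the genome, the longest over 98.4% of its length, so its reads may be shared. *PUT1* (AT1G31820, chr1:11416451-11418464, minus strand), a polyamine uptake transporter, had 2.45, 3.64 and 2.63 CPM in MUTEv5#5 and 1.07, 1.40 and 0.980 CPM in MUTEv5#2 (1.34, adjusted p = 0.0365). Here MUTEv5#2 was the line apart, below the 1.84 to 2.55 CPM of MUTEPPP#3 and MUTE. The noncoding AT1G23052 had 3.03, 3.75 and 3.05 CPM in MUTEv5#5 and 1.45, 1.33 and 1.6 CPM in MUTEv5#2 (1.16, adjusted p = 0.0173). It had 2.60 to 2.85 CPM in MUTE, just below MUTEv5#5, and 1.32 to 1.69 CPM in MUTEPPP#3, which overlaps MUTEv5#2. Over MUTE it differed by 0.27 in MUTEv5#5 (adjusted p = 0.383) and by -0.89 in MUTEv5#2 (adjusted p = 0.0153). AT1G23050, annotated at the same coordinates on the other strand, differed by 0.54 between the MUTEv5 lines (adjusted p = 0.337). With the organelle and ribosomal RNA share as a covariate, 0 genes were called higher and 8 lower, and none of these 4 rises passed. *LBD26*, AT1G43590, AT1G23052 and *PUT1* were called in 9, 8, 8 and 2 of the 12 fits that left out a library. All 4 calls were lost without MUTEv5#5 replicate 3 or MUTEv5#2 replicate 1 or 2, all but that of *LBD26* without MUTEv5#5 replicate 2, and that of *PUT1* was kept only without MUTEv5#5 replicate 1 or MUTE replicate 1. Over all alternatives their log2 fold changes ran from 1.51 to 1.70, 1.84 to 2.01, 1.05 to 1.24 and 1.14 to 1.5.

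The protein-coding genes lower in MUTEv5#5 that did not set MUTEv5#2 apart were 2. AT2G22795, an uncharacterised gene (chr2:9697131-9699944, minus strand), had 25.9, 26.9 and 18.9 CPM in MUTEv5#5 and 75.5, 62.4 and 69.8 CPM in MUTEv5#2 (-1.53, SE 0.167, adjusted p = 0.00895). It had 38.0 to 52.1 CPM in MUTEPPP#3 and 75.8 to 95.8 CPM in MUTE, so that MUTEv5#5 was the lowest of the lines. AT3G19370, which encodes a filament-like protein, had 17.1, 17.7 and 18.8 CPM in MUTEv5#5 and 27.7, 26.5 and 27.0 CPM in MUTEv5#2 (-0.60, SE 0.0794, adjusted p = 0.0244), the smallest change among the called genes. Values of MUTEv5#5 overlapped those of MUTEPPP#3 (18.4 to 21.7 CPM), and MUTEv5#2 lay nearer to MUTE (30.2 to 31.8 CPM). *LAF1* (AT4G25560), a MYB factor of far-red light signalling through phytochrome A, had 1.39, 1.01 and 1.30 CPM in MUTEv5#5 and 3.04, 3.52 and 3.11 CPM in MUTEv5#2 (-1.39, adjusted p = 0.0256), with MUTEv5#2 above all other libraries. It overlaps *ACYB-2* on the opposite strand, which differed by 0.18. AT2G22795, AT3G19370 and *LAF1* were called in 11, 5 and 6 of the 12 fits that left out a library. AT2G22795 lost its call without MUTEv5#2 replicate 1, AT3G19370 and *LAF1* without any 1 of the 6 MUTEv5 libraries, and AT3G19370 also without MUTE replicate 2, with log2 fold changes of -1.68 to -1.39, -0.65 to -0.57 and -1.48 to -1.25 over all alternatives.

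**Figure D4:**
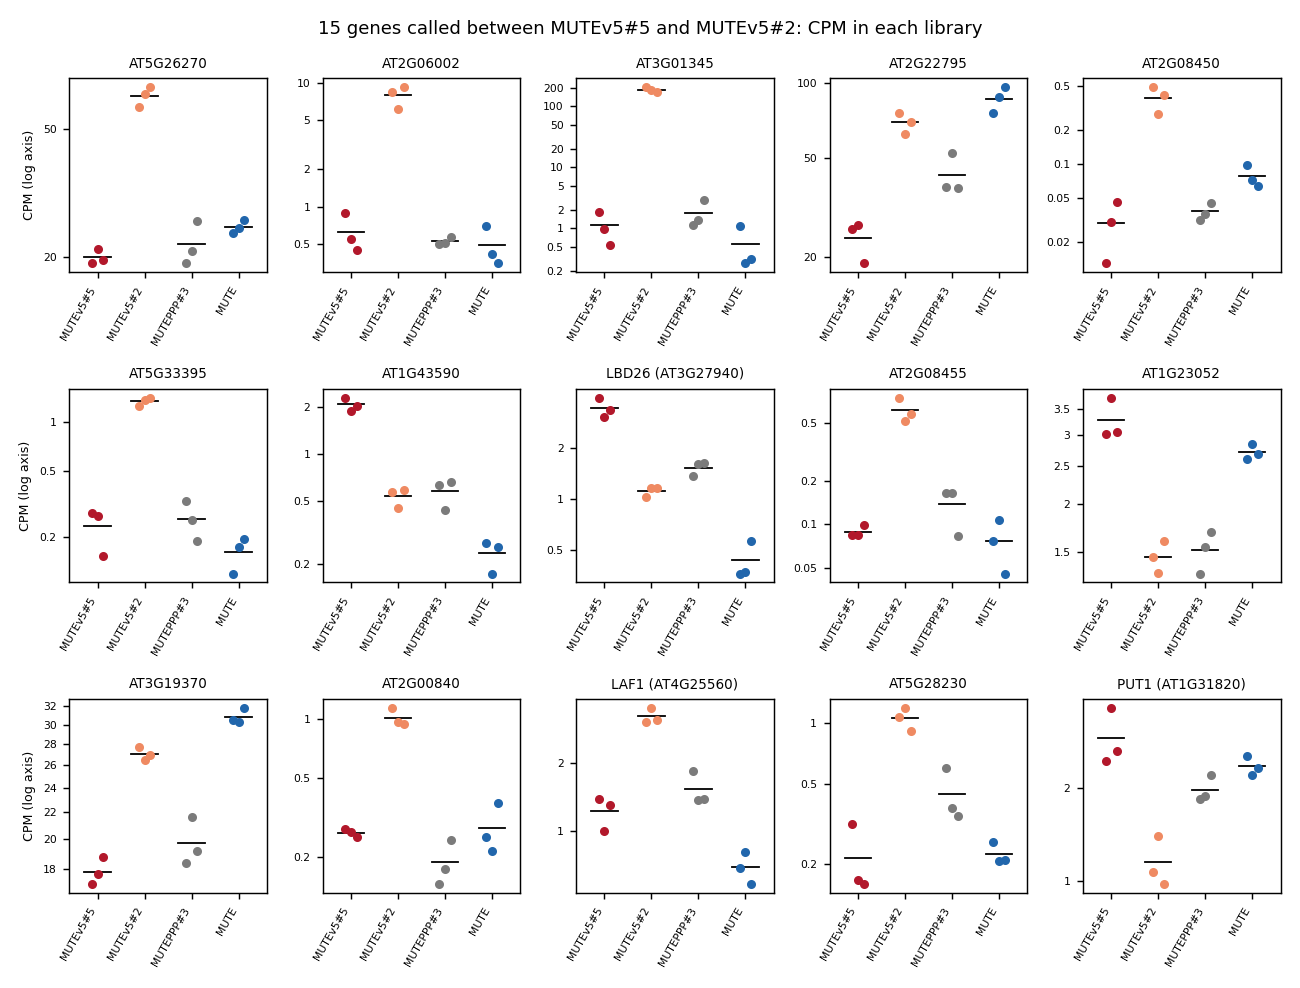
CPM (y axes, log scale) of the 15 called genes in each library of the 4 lines (x axis), ordered by p, 1 point a library and a bar at the mean of 3. In AT3G01345 the MUTEv5#2 libraries sit at 171 to 205 CPM and all other libraries at 2.90 CPM or below.

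Just outside the threshold, 14 genes had an adjusted p of 0.05 to 0.1, with 5 higher and 9 lower. The 5 with the smallest p were AT3G16670 (0.86, adjusted p = 0.0503), which encodes a pollen Ole e 1 and extensin family protein, AT2G31751, the noncoding AT1G64563 (-1.67, adjusted p = 0.0530), AT2G01755 (0.65, adjusted p = 0.0530) and AT5G50840 (-0.55, adjusted p = 0.0530), which encodes an alpha-taxilin-like protein. AT3G16670 had 65.2, 63.2 and 54.4 CPM in MUTEv5#5 and 32.5, 31.4 and 37.1 CPM in MUTEv5#2. In all 5 genes the groups were apart, as they were in 4120 of the 22636 genes tested. These 5 were picked by small p, which goes with such a gap, so the gap adds nothing to the p. DESeq2 called all 5.

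Lists for the division machinery and for other cell types of the seedling had small median changes. Over 12 mitosis genes the median was -0.01, over 12 DNA replication genes -0.16 and over 9 epidermis and cuticle genes 0.11, each with 1 member at an unadjusted p under 0.05. Of the mitosis genes 4 were higher and 8 lower, of the replication genes 2 and 10, and of the epidermis and cuticle genes 8 and 1. These counts describe direction only. *HINKEL*, a kinesin of cytokinesis, had the smallest p of the mitosis list (-0.30, adjusted p = 0.440) and *CDT1A*, a replication licensing factor, that of the replication list (-0.25, adjusted p = 0.454). *CER3*, a wax synthesis gene, stood at 127 ± 11.5 CPM in MUTEv5#5 and 100 ± 13.8 CPM in MUTEv5#2 (SD, n = 3 each; 0.35, adjusted p = 0.455). The 12 trichome and root hair genes had a median of -0.10, and within them *TRY* (AT5G53200), a small MYB inhibitor of trichome fate, had 1.14, 2.58 and 2.1 CPM in MUTEv5#5 and 0.669, 0.579 and 0.714 CPM in MUTEv5#2. The groups were apart (1.56, adjusted p = 0.122, and 0.000464 by DESeq2), and without MUTEv5#5 replicate 1 the value was 1.84 and called (adjusted p = 0.0382). Of 6 root genes with a median of -0.09, *WOX5*, which marks the quiescent centre, stood at 0.640 ± 0.203 CPM in MUTEv5#5 and 1.02 ± 0.0898 CPM in MUTEv5#2 (-0.68, adjusted p = 0.455).

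Clock genes were spread widely within the lines. The median over 8 morning genes was 0.88, with 7 higher, and over 10 evening genes -0.04, and edgeR called 0. *RVE1* (AT5G17300), a morning MYB-like factor, had 19.2, 49.3 and 20.8 CPM in MUTEv5#5 and 5.92, 5.47 and 9.66 CPM in MUTEv5#2, which are apart (2.08, adjusted p = 0.121, and 4.49e-05 by DESeq2, which called no other clock gene listed). *LHY*, a core morning factor, had 339, 23.4 and 130 CPM in MUTEv5#5 and 56.3, 58.6 and 34.7 CPM in MUTEv5#2, where the lowest value of the MUTEv5 libraries belongs to MUTEv5#5 (1.72, adjusted p = 0.638). The part of time of day in these values was not tested; the time-of-day index of the libraries is given above. With this index as a covariate 17 genes were called, all 15 among them, and the log2 fold change of *MUTE* was 0.64.

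**Figure D5:**
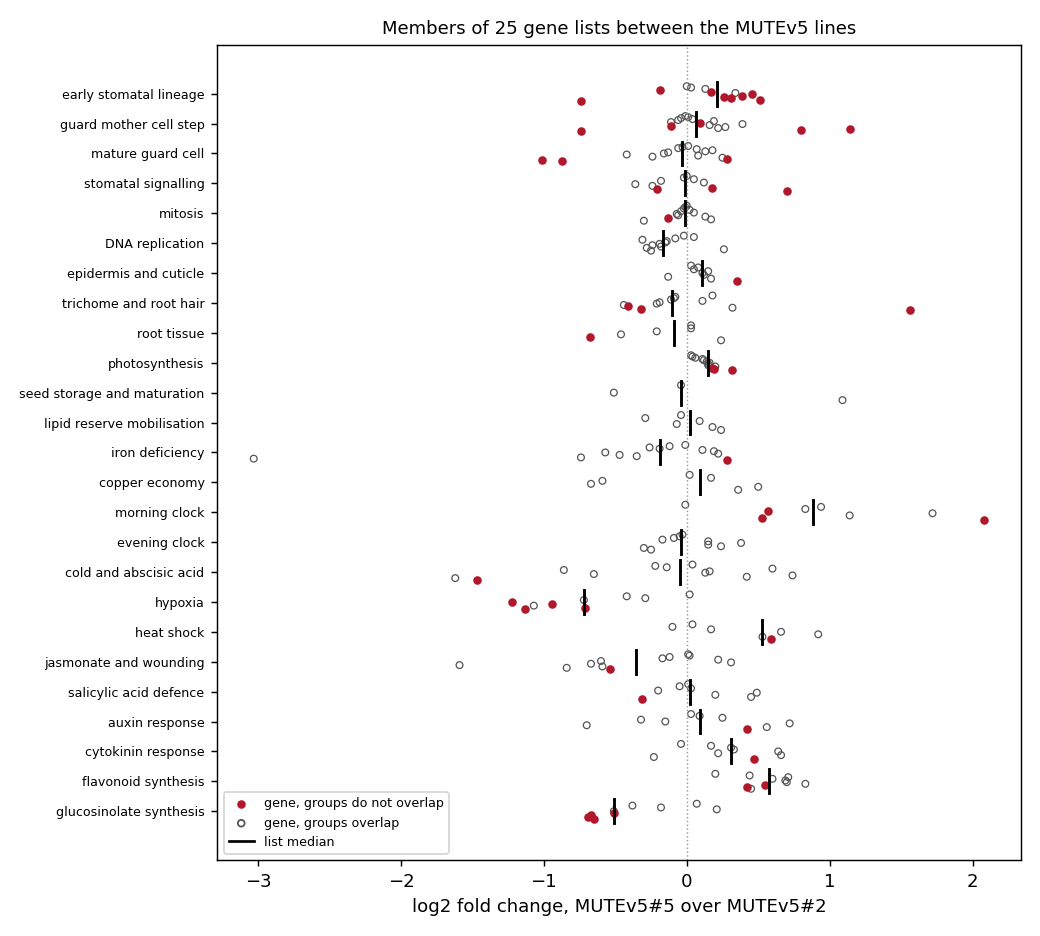
Log2 fold change of MUTEv5#5 over MUTEv5#2 (x axis) for the tested members of 25 gene lists (y axis), 1 point a gene, filled where the 3 libraries of each line do not overlap, with a bar at the list median. Over all 22636 genes tested, 4120 did not overlap. Most members lie near 0, the morning clock and flavonoid lists lie to the right (medians 0.88 and 0.58), the hypoxia and glucosinolate lists to the left (-0.72 and -0.51), and edgeR called 0 members.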

How the data were processed

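The authors deposited counts, a whole number per gene and library, with 12 libraries in 1 table, per the file headers; the submitters' processing notes name the TAIR10 build, DESeq2, StringTie 2.1.3b, HISAT2 2.1.0, FastQC, Bowtie2 2.3.4.1 and Trimmomatic 0.38, with no roles given. A stranded mRNA kit was used, per the labels. Of 23098 entries, 23071 matched a gene of the RefSeq annotation (TAIR10.1), whose coordinates are given; 27 named none and were left out, at 0.000596% of a library or less. The lowest value was 1 in every library, 80 entries stood at 1 in all 12, and why is not given.

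Genes were tested by edgeR 4.0.16 in R 4.3.3 (quasi-likelihood, TMM scaling, filterByExpr, which left out 435 genes) with all 12 libraries in a fit of 4 group means. P-values were adjusted over the 22636 genes tested, threshold 0.05. CPM use TMM-scaled totals; values are mean ± SD and fold changes log2, MUTEv5#5 over MUTEv5#2. The common biological coefficient of variation was 0.215. Chi-square per degree of freedom between replicates was 82.8 to 254, so counting error was a small part of the spread over all genes together. Genes with many counts weigh most in that value, and it says little of genes with few, such as AT2G08450. Replicates are independent biological samples per the submitters. Scripts were tested on simulated data.

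Members, 25 gene lists (248 of 262 entries in the table) and alternatives were chosen with earlier results of these data known. Named are MUTE and its bHLH partners, every called gene, the genes with the next smallest p to 20 in all, and up to 4 members of each list with the smallest p; flanking genes within 5000 bases and the remaining list members named were chosen after their values were seen. Alternatives were RLE scaling, library totals, other filters, DESeq2 1.42.0, limma-voom (limma 3.58.1), only the 6 MUTEv5 libraries, replicate blocks, covariates, subtracting 1 from every count, and leaving out each library. Near copies were sought with BLAST 2.17.0 (at least 90% identity over 150 bases).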

Additional observations from a re-analysis of the deposited data

How the results depend on the processing

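The count of 15 called genes (14 by at least 2-fold) was 14 to 19 (12 to 16) with RLE scaling, library totals, no filter, a stricter filter, limma-voom, only the 6 MUTEv5 libraries, the clock index as a covariate or 1 subtracted from every count. With only the 6 MUTEv5 libraries 9 of the 14 genes called were among the 15. The stricter filter left out AT2G08450, which was thus not tested, and the other 14 of the 15 were called. With the remaining settings of this range all 15 were called. With DESeq2 it was 300 (89 by at least 2-fold) and *MUTE* was called at 0.80; with the organelle and ribosomal RNA share as a covariate it was 8 (7), of which 6 were among the 15. The cause was not tested. The replicate block left 15 calls (12), 11 of them shared, with *MUTE* at 0.79, and called *SDD1* (adjusted p = 0.0273); the block with only the 6 MUTEv5 libraries left 0 (0), where edgeR had 2636 genes at an unadjusted p under 0.05. The labels do not say whether the replicate numbers pair the samples. Between the MUTEv5 lines, deviations of same-numbered libraries correlated at 0.300, -0.166 and 0.242. Of the 3 MUTEv5#5 libraries, 2 were most like their own number. Replicate 1 had the highest *MUTE* value and time-of-day index of every line. That index was 4.81 in MUTEv5#5, 3.50 in MUTEv5#2, 1.66 in MUTEPPP#3 and 5.41 in MUTE. The main fit holds no term for the replicate number, and the SE of *MUTE* was 0.216 there and 0.124 with the block over all lines. The cause of these shared patterns was not tested. Leaving out 1 library gave 3 to 35 called genes, 3 to 20 by at least 2-fold, and 0.55 to 0.96 for *MUTE*: 5 genes without MUTEv5#5 replicate 2 or 3 or MUTEv5#2 replicate 2, 3 without MUTEv5#2 replicate 1 and 35 without MUTE replicate 1. Of 359 values of the 15 called genes under these alternatives, 266 kept the call and 93 lost it. Of 1295 values of 54 other named genes that were followed under them, 39 gained a call, 17 of them with DESeq2. Of all these values, 0 changed sign. With 3 libraries a line, differences in genes with few counts, such as AT2G08450 with 2 to 6 counts in MUTEv5#5, are bounded by depth.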

Other observations

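Outside the stomatal lineage, edgeR called 0 members of the metabolic and stress lists and DESeq2 called *PDC1*, and the counts below describe direction only. All 13 photosynthesis genes had a positive log2 fold change in MUTEv5#5 over MUTEv5#2 (median 0.15, highest 0.32 in *GAPA*, a chloroplast dehydrogenase of the Calvin cycle). All 10 flavonoid synthesis genes were positive too (median 0.58): *TT8*, a bHLH regulator of anthocyanins, had 0.853, 0.650 and 0.951 CPM in MUTEv5#5 and 0.478, 0.594 and 0.602 CPM in MUTEv5#2 (0.55, adjusted p = 0.596), and the largest value was that of *F3H*, a flavanone hydroxylase (0.83, adjusted p = 0.650). Of 9 glucosinolate synthesis genes, 7 had a negative value (median -0.51) and 0 were called by either tool. *CYP79B2*, which turns tryptophan into the oxime that feeds indole glucosinolates, had 25.4, 44.7 and 43.0 CPM in MUTEv5#5 and 55.7, 61.7 and 65.2 CPM in MUTEv5#2 (-0.69, adjusted p = 0.363). *CYP79B3*, its paralog, differed by -0.65 (adjusted p = 0.330), *CYP83B1* of the same branch by -0.67 (adjusted p = 0.430) and *BCAT4* of the methionine branch by -0.51 (adjusted p = 0.465). Of 9 hypoxia response genes, 8 had a negative value (median -0.72). *PDC1* (AT4G33070), pyruvate decarboxylase, had 11.3, 10.5 and 14.9 CPM in MUTEv5#5 and 21.4, 30.5 and 28.2 CPM in MUTEv5#2 (-1.13, adjusted p = 0.171, and 0.00157 by DESeq2; called with the replicate block, adjusted p = 0.0377), and *ADH1*, alcohol dehydrogenase, had 8.09, 5.27 and 5.75 CPM in MUTEv5#5 and 11.4, 11.4 and 8.35 CPM in MUTEv5#2 (-0.71, adjusted p = 0.321).

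Hormone and nutrient lists had members on both sides of 0. *ARR9*, a type-A response regulator, stood at 53.2 ± 3.22 CPM in MUTEv5#5 and 38.3 ± 9.17 CPM in MUTEv5#2 (SD, n = 3 each; 0.47, adjusted p = 0.284) in a cytokinin list with a median of 0.31, and *IAA14*, an auxin response repressor, at 15.8 ± 1.67 CPM in MUTEv5#5 and 11.8 ± 0.740 CPM in MUTEv5#2 (0.42, adjusted p = 0.414) in an auxin list with a median of 0.09. *LOX2*, a lipoxygenase of jasmonate synthesis, stood at 23.6 ± 3.26 CPM in MUTEv5#5 and 34.4 ± 4.65 CPM in MUTEv5#2 (SD, n = 3 each; -0.54, adjusted p = 0.397; list median -0.36). *IRT1*, the root iron transporter, differed by -3.03 (adjusted p = 0.408), but its 0.323, 0.0229 and 0.0761 CPM in MUTEv5#5 overlap the 0.492, 3.06 and 0.0560 CPM of MUTEv5#2, and the median over 13 iron genes was -0.19. Medians were 0.10 for 6 copper genes, -0.05 for 12 cold and abscisic acid genes, 0.53 for 7 heat shock genes, 0.02 for 8 salicylic acid genes, 0.03 for 6 lipid mobilisation genes and -0.04 for the 3 of 11 seed genes that the table holds.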
